A study of Homo sapiens with 6 samples.

Results

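The genes described here are 60 human genes of ribosome biogenesis and of RNA polymerase I (Pol I), taken by symbol from the 60623 genes of the count table, in which every one of the 60 was found once. They comprise *MYC*, 5 Pol I subunits, 3 Pol I initiation factors, 4 abundant nucleolar proteins, 3 core proteins of C/D box and 4 of H/ACA box small nucleolar ribonucleoproteins (snoRNPs), and 13, 6, and 21 assembly factors of the small subunit processome, the late 40S particle, and the 60S particle. RNA-Seq was analyzed in TC28a2 cells, an immortalized human chondrocyte line, that received 2 μM mocetinostat, an inhibitor of class I histone deacetylases, or only its solvent, DMSO, over 24 hours, and 3 samples were taken of each. The single line and the single dose and time limit what the comparison covers. Per the study's description the 3 samples of each came from separate experiments, so p-values measure the spread between those experiments in 1 line.

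Ribosome production starts in the nucleolus, where Pol I transcribes a long precursor of the 18S, 5.8S, and 28S rRNAs. SnoRNPs modify the precursor, the processome cuts and folds its 18S part, and separate sets of factors assemble the large and small subunits before export. MYC activates many of these genes, and rapidly dividing cells spend much of their transcription on this pathway.

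Total counts ranged from 4873426 to 11031132 with DMSO and from 1619344 to 5089542 with mocetinostat, and the median coefficient of variation of the members between replicates was 8.38% with DMSO and 10.9% with mocetinostat. In all 6 samples the chondrocyte gene *SOX9* held at least 301 counts and the mesenchymal gene *VIM* at least 3756, whereas *COL2A1* held only 7 to 26 counts with DMSO. The summed level of 6 chondrocyte markers ranged from 107 to 131 CPM with DMSO and from 239 to 272 CPM with mocetinostat. Of 2 endothelial markers the sum ranged from 3.39 to 5.83 CPM and from 7.44 to 9.53 CPM, and of 2 epithelial markers (*EPCAM* and *KRT5*) from 0 to 0.59 CPM and from 5.39 to 11.2 CPM. Of 2 leukocyte markers it was at most 2.29 CPM, with *CD68* at 0 in every mocetinostat sample. Of the endothelial pair, *PECAM1* held 0.905, 1.87, and 1.03 CPM with DMSO and 5.15, 4.34, and 7.05 CPM with mocetinostat. *CDH5* overlapped between the conditions, at 2.80, 3.96, and 2.36 CPM and 3.77, 3.10, and 2.49 CPM. *VIM* ranged from 1243 to 1262 CPM with DMSO and from 2175 to 2328 CPM with mocetinostat. *COL1A1*, a more abundant mesenchymal gene, held 3989, 4772, and 4871 CPM with DMSO and 3851, 4153, and 3791 CPM with mocetinostat, with overlap. *COL1A2* held 3.53, 2.08, and 1.92 CPM and 7.93, 6.82, and 11.6 CPM. The sum of these and *VIM* overlapped between the conditions, at 5254 to 6116 CPM and 5978 to 6487 CPM. Chondrocyte, endothelial, and epithelial sums and *VIM* thus moved with the treatment, whereas the mesenchymal sum overlapped. Their part in the results was not tested. Levels below are in CPM, counts brought to a common library size with edgeR's TMM factors, and "rose" or "fell" means an adjusted p under 0.05 in edgeR's quasi-likelihood test over 13966 genes, without a minimum fold change.

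Mocetinostat was followed by lower RNA levels of most ribosome biogenesis genes, by moderate amounts. The members together held 1.00%, 1.01%, and 1.05% of all counts under DMSO, against 0.654%, 0.624%, and 0.646% under mocetinostat (replicates 1 to 3 in order), so that the conditions did not overlap. All 60 passed the expression filter, and 53 fell, 1 rose, and 6 did not pass the test. The 53 are 88.3% of the members, where 31.4% of all genes tested fell and 32.9% rose. The median log2 fold change was -0.73 over the members and -0.00 over all genes tested. The values of the conditions did not overlap, with mocetinostat lower, in 53 of the members and in 32.8% of all genes tested, and with mocetinostat higher in 2 members (*POLR1D* and *RCL1*) and in 33.7% of all genes tested. An absolute log2 fold change over 1, the additional threshold of the study, was passed by 15 members, which were called downregulated (25%, against 8.18% of all genes tested), and by 0 in the upward direction (20.2% of all genes tested). One choice of scaling matters for the direction. *GAPDH*, the control gene of the study's qPCR, held 2953 to 3132 CPM with DMSO and 2034 to 2187 CPM with mocetinostat. Scaling each library to it raised the median of all genes by 0.54 on the log2 scale, and then 23 members fell and 7 rose. The shares of 31.4% and 32.9% hold for TMM scaling, and the matching shares under *GAPDH* scaling are not given here. The *GAPDH*-scaled counts of members, roles, and lists that fell or rose therefore have no background to be read against. For calls that also passed the fold threshold, the numbers over all 13966 genes are given further below. Under *GAPDH* scaling these calls held 2 of the 60 members lower and 1 higher. The difference of these calls from all genes was not tested. Under that scaling the median log2 fold change was -0.20 over the members and 0.53 over all genes tested. Of the 15 downregulated members, *UBTF* and *DDX51* kept the call under *GAPDH* scaling. In edgeR's test against a log2 fold change of 1, 8 kept it (*UBTF*, *DDX51*, *UTP20*, *NOP16*, *DDX21*, *MRTO4*, *NAT10*, and *NOB1*), so that *DKC1*, *HEATR1*, *WDR43*, and the others lost it in both. Of the 13966 genes tested, 465 were called lower in the test against a log2 fold change of 1. The median of the members relative to that of all genes was -0.729 with TMM and -0.735 with *GAPDH* scaling. In bulk RNA, fewer cells of a type and less RNA per cell cannot be told apart.

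**Figure D1:**
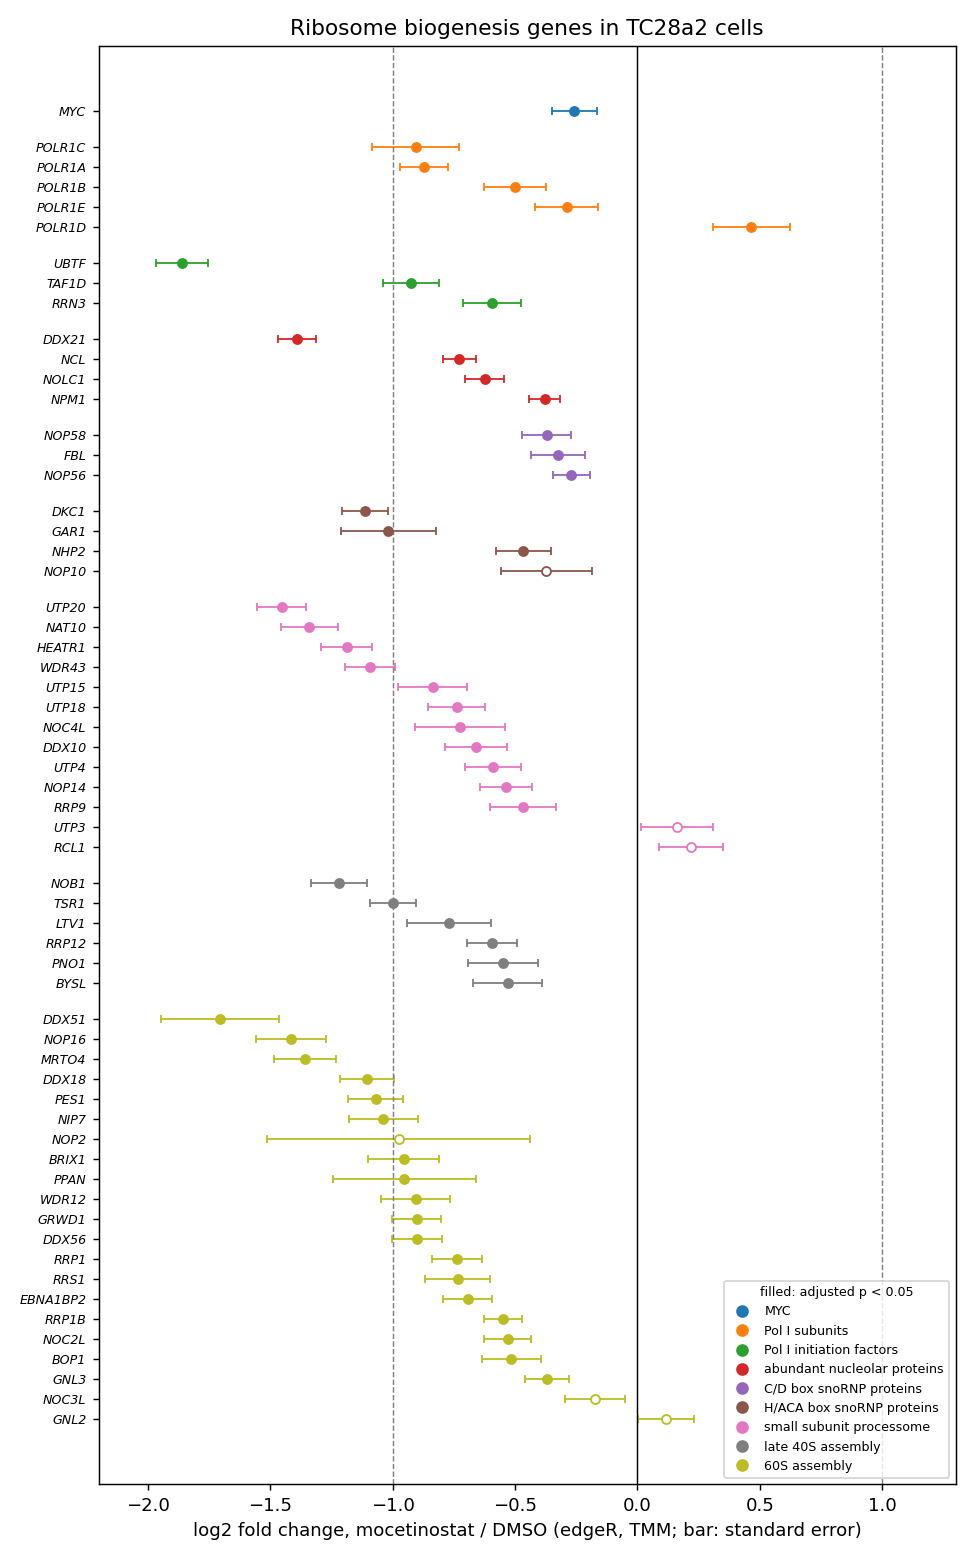
Log2 fold change of each of the 60 members (x axis, TMM scaling) with its standard error, grouped by role. Filled points have an edgeR adjusted p under 0.05, and dashed lines mark log2 fold changes of -1 and 1. *UBTF* lies lowest at -1.86 and *POLR1D* highest at 0.47, and under *GAPDH* scaling all points shift toward higher values by about 0.53 and 14 of them turn from below to above 0.

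The promoters were examined for letters that the members share. RefSeq start-site windows (GRCh38.p14, 250 bases before to 50 after a start, with 1 or more starts per gene) were at hand for 51 members and not for *BOP1*, *DDX18*, *MYC*, *NOLC1*, *NOP58*, *POLR1E*, *RRP12*, *RRP1B*, and *RRS1*. The E-box CACGTG, the letters bound by MYC and its partner MAX and identical on both strands, occurred in a window of 22 of the 51 members (43.1%), compared with 12.5% of 10361 tested genes and 8.8% of 27305 genes in the table. The ETS-type letters CCGGAA, on either strand, occurred for 54.9% of the members and 34.5% of tested genes. The share of G and C was alike, with a median of 63.7% for the members and 65.0% for tested genes. The 22 members with CACGTG had a median log2 fold change of -0.64 and 7 downregulated genes, and the 29 without it had a median of -0.90 and 7 downregulated genes, a description with no test. The first 3 sequences below show the 60 bases before the start and the next 3 show 30 bases across the start or just after it, 5′ to 3′ with the E-box in capitals. The first 5 belong to the members with the smallest p among those that hold the motif, and *BYSL* is shown as a member of late 40S assembly with a smaller change.
DDX21 (chr10:68956587-68956646, plus strand): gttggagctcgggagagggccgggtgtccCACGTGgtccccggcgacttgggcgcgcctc
UTP20 (chr12:101280045-101280104, plus strand): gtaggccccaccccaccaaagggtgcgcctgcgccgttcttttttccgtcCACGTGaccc
NAT10 (chr11:34105569-34105628, plus strand): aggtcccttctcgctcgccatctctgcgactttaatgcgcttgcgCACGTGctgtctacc
MRTO4 (chr1:19251807-19251836, plus strand): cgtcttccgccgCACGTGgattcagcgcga
WDR43 (chr2:28894658-28894687, plus strand): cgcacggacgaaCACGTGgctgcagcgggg
BYSL (chr6:41921515-41921544, plus strand): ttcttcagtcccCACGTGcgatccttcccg
The motif begins 31 bases before the start in *DDX21*, 10 before it in *UTP20*, and 15 before it in *NAT10*. *UBTF*, the member with the lowest log2 fold change, is shown for contrast by the 100 bases before one of its 2 starts, of which 86.0% are G or C. No CACGTG lies in either of its windows.
UBTF (chr17:44220883-44220982, minus strand): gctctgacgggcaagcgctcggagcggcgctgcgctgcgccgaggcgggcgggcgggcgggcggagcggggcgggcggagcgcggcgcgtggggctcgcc

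*MYC*, the transcription factor that activates many of these genes, changed little in amount. It held 193, 193, and 203 CPM under DMSO, against 169.9, 141, and 178 CPM under mocetinostat (replicates 1 to 3 in order). The mocetinostat samples all lay below the DMSO samples, but replicate 2 with mocetinostat, the shallowest library, was the lowest. The mean went from 196 ± 5.93 to 163 ± 19.7 CPM (SD, n = 3), a decrease with TMM scaling that turned into an increase of 0.27 under *GAPDH* scaling (log2 fold change -0.26, standard error 0.09, edgeR adjusted p = 0.011). Without mocetinostat replicate 2 the adjusted p was 0.0715, with all libraries thinned to 1619344 counts it was 0.235, and with a minimum of 10 counts in each of the samples it was 0.0818, so the call depended on these choices. Among 11 further genes of the MYC network, 10 were tested, of which 3 rose and 1 fell with TMM scaling and 7 rose and 0 fell with *GAPDH* scaling. With TMM scaling 32.9% of all genes tested rose and 31.4% fell. The median of the 10 was 0.04 with TMM and 0.58 with *GAPDH* scaling, against -0.00 and 0.53 over all genes tested. This small list is not called different from that background. *MXI1*, which encodes a MAX partner that opposes MYC, rose from 18.6 ± 2.19 to 43.1 ± 6.5 CPM (SD, n = 3) (log2 fold change 1.23, standard error 0.16, edgeR adjusted p = 7.95e-10). *MYCL*, a MYC family member, rose from 3.22 ± 0.378 to 10.6 ± 0.613 CPM (SD, n = 3) (log2 fold change 1.74, standard error 0.33, edgeR adjusted p = 5.50e-06). *MXD3*, also an antagonist, was the gene that fell (log2 fold change -0.45, standard error 0.20, edgeR adjusted p = 0.0425), and it was 0.09 under *GAPDH* scaling. *MXD1* and *MNT*, antagonists as well, did not pass the test, with log2 fold changes of -0.34 and -0.29. *MXD4*, another antagonist, rose (log2 fold change 0.43, standard error 0.17, edgeR adjusted p = 0.0254), and it was 0.97 under *GAPDH* scaling. Its value in mocetinostat replicate 3, 24.9 CPM, lay within the DMSO range. *MAX* itself went from 91.8 ± 7.83 to 93.3 ± 6.09 CPM (SD, n = 3) and did not pass the test (adjusted p = 0.847 from edgeR). *MYCN* was removed by the expression filter.

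Pol I subunits moved in both directions, as did all genes tested, of which 31.4% fell and 32.9% rose with TMM scaling. With TMM scaling *POLR1A*, *POLR1B*, *POLR1C*, and *POLR1E* fell and *POLR1D* rose, none passed the fold threshold, and under *GAPDH* scaling only *POLR1A* fell (-0.34) and *POLR1D* rose (1.00). *POLR1B*, *POLR1C*, and *POLR1E* did not pass the test there, with log2 fold changes of 0.04, -0.36, and 0.25. *POLR1A*, the largest catalytic subunit (ENSG00000068654, chromosome 2 of GRCh38 from 86020216 to 86106155), held 192, 215, and 202 CPM under DMSO, against 100.1, 109.7, and 125 CPM under mocetinostat (replicates 1 to 3 in order). No sample of the conditions overlapped, and the level was 1.83-fold lower with mocetinostat (log2 fold change -0.87, standard error 0.10, edgeR adjusted p = 1.62e-12). *POLR1B*, the second catalytic subunit, held 75.4, 65.2, and 69.0 CPM under DMSO, against 53.5, 49.6, and 44.3 CPM under mocetinostat (log2 fold change -0.50, standard error 0.13, edgeR adjusted p = 4.66e-04). *POLR1E*, part of a subcomplex particular to Pol I, held 69.0, 58.1, and 64.0 CPM under DMSO, against 57.5, 44.6, and 51.8 CPM under mocetinostat (log2 fold change -0.29, standard error 0.13, edgeR adjusted p = 0.0435). The change of *POLR1E* was the smallest among the 4 that fell, and its call depended on the processing. Its adjusted p was 0.0909 in DESeq2, 0.0593 with RLE size factors, 0.0577 with library size only, 0.142 with a minimum of 10 counts, and 0.116 with thinned libraries. Without DMSO replicate 1, mocetinostat replicate 2, or mocetinostat replicate 3 it was 0.11, 0.116, or 0.0747 in edgeR. *POLR1C* and *POLR1D* encode the pair of subunits that Pol I shares with RNA polymerase III, and they went in opposite directions. *POLR1C* held 40.6, 34.4, and 32.0 CPM under DMSO, against 19.2, 13.0, and 23.6 CPM under mocetinostat (replicates 1 to 3 in order), all mocetinostat samples being lower (log2 fold change -0.91, standard error 0.18, edgeR adjusted p = 8.19e-06). *POLR1D* held 38.4, 29.6, and 39.3 CPM under DMSO, against 40.2, 77.5, and 40.6 CPM under mocetinostat (replicates 1 to 3 in order). Only replicate 2 with mocetinostat stood clearly above the DMSO samples, and replicates 1 and 3 lay only just above the highest of them. The fitted increase (log2 fold change 0.47, standard error 0.16, edgeR adjusted p = 0.00768) was 0.14 with an adjusted p of 0.449 without that library, and DESeq2 gave an adjusted p of 0.0778.

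The 3 members that encode initiation factors, which bring Pol I to the rRNA genes, all fell with TMM scaling. Under *GAPDH* scaling *UBTF* and *TAF1D* fell and *RRN3* did not pass the test (-0.06, edgeR adjusted p = 0.689). *UBTF* encodes the upstream binding factor, which coats active rRNA genes (ENSG00000108312, chromosome 17 of GRCh38 from 44205033 to 44221626). It held 2066, 1001, and 1670 counts under DMSO, against 301, 87, and 148 under mocetinostat, which are 187, 208, and 246 CPM and 59.7, 53.9, and 61.3 CPM. The lowest DMSO sample was thus above every mocetinostat sample by a wide margin, and *UBTF* had the lowest log2 fold change of the 60 members, 3.63-fold lower after treatment (log2 fold change -1.86, standard error 0.11, edgeR adjusted p = 2.36e-25). It stayed downregulated in every alternative, including *GAPDH* scaling (-1.33). A noncoding gene on the opposite strand overlaps 3.5% of its exonic bases. *TAF1D*, a subunit of the selectivity factor that binds the rRNA promoter, held 126, 116, and 109.5 CPM under DMSO, against 68.4, 60.7, and 53.9 CPM under mocetinostat (log2 fold change -0.93, standard error 0.11, edgeR adjusted p = 6.99e-11). *RRN3*, which links Pol I to that factor, held 90.7, 89.5, and 84.0 CPM under DMSO, against 54.1, 60.1, and 62.6 CPM under mocetinostat (log2 fold change -0.59, standard error 0.12, edgeR adjusted p = 1.17e-05). Both were lower in every mocetinostat sample than in any DMSO sample. Of 7 further Pol I genes, 3 fell (*ZNRD1*, *TAF1C*, and *TTF1*), 0 rose, and 0 passed the fold threshold (median log2 fold change -0.29). *TAF1A* (0.15) and *TAF1B* (-0.29) did not pass the test. Over all genes tested, 31.4% fell, 32.9% rose, and 8.18% were downregulated, and this small list is not called different from that background. Under *GAPDH* scaling 0 of the 7 fell and 2 rose, among them *TAF1A* (0.69). Their median was then 0.25, against 0.53 over all genes tested. *TTF1*, the transcription termination factor of Pol I, went from 35.6 ± 4.23 to 21.4 ± 5.71 CPM (SD, n = 3) (log2 fold change -0.81, standard error 0.18, edgeR adjusted p = 6.21e-05).

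**Figure D2:**
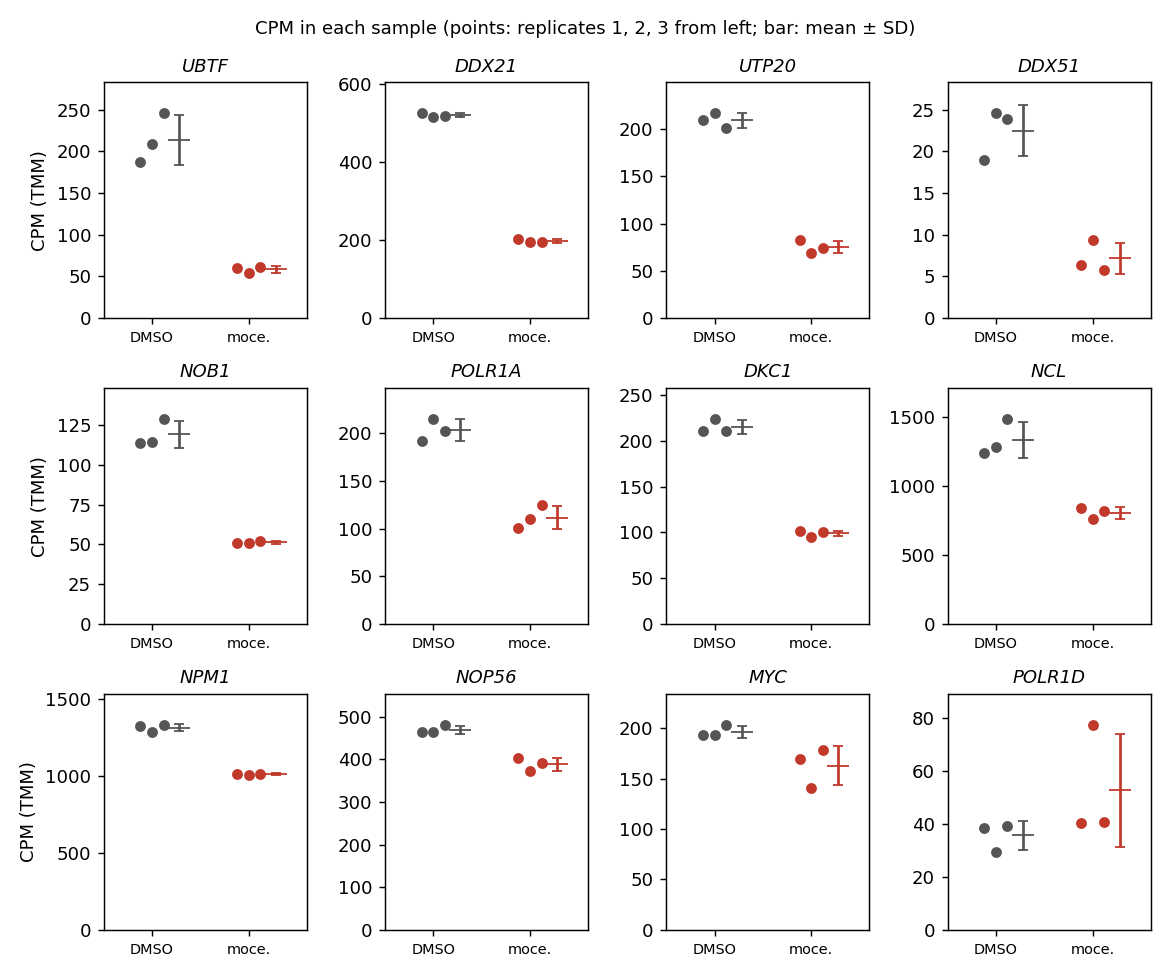
CPM (y axis, from 0) in each of the 6 samples for 12 members. Points are replicates 1, 2, and 3 from left to right in each condition and the bar beside them is the mean ± SD. The conditions do not overlap in any panel, and in *POLR1D* a single mocetinostat sample at 77.5 CPM sets the higher mean. These are TMM-scaled values, and under *GAPDH* scaling *MYC*, *NPM1*, and *NOP56* have log2 fold changes above 0.

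The abundant nucleolar proteins include the members with the most RNA for their length. Per kb of exonic length, *NPM1* was first and *NCL* second in both conditions, at 158 and 149.8 CPM per kb with DMSO and 122 and 90.3 CPM per kb with mocetinostat. All 4 of the group fell with TMM scaling, against 31.4% of all genes tested. Under *GAPDH* scaling *NCL* (-0.20) and *DDX21* (-0.86) fell, short of the fold threshold, and *NOLC1* (-0.10) and *NPM1* (0.15) did not pass the test. *NCL* encodes nucleolin, which binds nascent pre-rRNA (ENSG00000115053, chromosome 2 of GRCh38 from 231453531 to 231483641), and held 1239.7, 1282, and 1485 CPM under DMSO, against 838, 759, and 821 CPM under mocetinostat (replicates 1 to 3 in order). It was lower in every mocetinostat sample, by 1.66-fold (log2 fold change -0.73, standard error 0.07, edgeR adjusted p = 3.88e-15). *NPM1*, nucleophosmin, which forms the outer layer of the nucleolus, held 1325, 1290.0, and 1334 CPM under DMSO, against 1018, 1006, and 1013 CPM under mocetinostat, a narrow spread within each condition and a 1.3-fold decrease (log2 fold change -0.38, standard error 0.06, edgeR adjusted p = 4.30e-07). *NOLC1*, a chaperone of snoRNPs, had a log2 fold change of -0.62. The largest change of the group was in *DDX21*, an RNA helicase that acts on both Pol I transcription and pre-rRNA (ENSG00000165732, chromosome 10 of GRCh38 from 68956135 to 68985068). It held 5799, 2476, and 3515 counts under DMSO, against 1025, 313, and 472 under mocetinostat, or 525, 516, and 518 CPM and 203, 194, and 196 CPM. The samples of each condition lay close together and far from the other condition, and the level was 2.62-fold lower (log2 fold change -1.39, standard error 0.08, edgeR adjusted p = 8.01e-26). *DDX21* had the smallest p of all members and holds the E-box shown above.

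Among the 2 snoRNP families, 0 of 3 C/D box proteins and 2 of 4 H/ACA box proteins were downregulated, against 8.18% of all genes tested. The difference between these small groups was not tested. Both H/ACA calls were lost under *GAPDH* scaling and in edgeR's test against a log2 fold change of 1. The C/D box proteins act with guide RNAs in 2′-O-methylation of rRNA, and with TMM scaling all 3 fell by at most 1.29-fold, while under *GAPDH* scaling all 3 had values above 0. There *NOP56* passed the test as a rise (0.26, edgeR adjusted p = 0.00948). *FBL*, fibrillarin, the methyltransferase itself, held 119, 113, and 115 CPM under DMSO, against 85.4, 78.1, and 114 CPM under mocetinostat, and replicate 3 with mocetinostat lay within the DMSO range (log2 fold change -0.32, standard error 0.11, edgeR adjusted p = 0.00795). Without mocetinostat replicate 1 or replicate 2 its adjusted p was 0.0913 or 0.0515, and without mocetinostat replicate 3 its log2 fold change was -0.50. *NOP56* held 465, 464, and 481 CPM under DMSO, against 403, 373, and 391 CPM under mocetinostat (log2 fold change -0.27, standard error 0.07, edgeR adjusted p = 0.00118), and *NOP58* held 138, 136, and 136 CPM under DMSO, against 114, 99.2, and 99.9 CPM under mocetinostat (log2 fold change -0.37, standard error 0.10, edgeR adjusted p = 9.15e-04). Of the H/ACA box proteins, which act with guide RNAs in pseudouridylation, *DKC1* and *GAR1* were downregulated, *NHP2* fell, and *NOP10* did not pass the test, and under *GAPDH* scaling *NHP2* and *NOP10* were above 0. *DKC1*, dyskerin, the pseudouridine synthase (ENSG00000130826, chromosome X of GRCh38 from 154762742 to 154777689), held 211, 224, and 210.5 CPM under DMSO, against 101, 95.4, and 100.3 CPM under mocetinostat (replicates 1 to 3 in order). The lowest DMSO sample lay well above the highest mocetinostat sample, and the level was 2.16-fold lower (log2 fold change -1.11, standard error 0.09, edgeR adjusted p = 3.67e-17). *GAR1* held 317, 133, and 200 counts under DMSO, against 85, 20, and 27 under mocetinostat (log2 fold change -1.02, standard error 0.19, edgeR adjusted p = 4.71e-06). Its log2 fold change lay near the threshold of -1, and its call was lost in 6 alternatives, among them those without mocetinostat replicate 2 (-0.99) or replicate 3 (-0.91). *NOP10* held 38.7, 27.3, and 22.3 CPM under DMSO, against 21.4, 18.6, and 29.0 CPM under mocetinostat, with overlap between the conditions (log2 fold change -0.37, standard error 0.19, edgeR adjusted p = 0.0729). Single libraries moved it, to -0.11 without DMSO replicate 1. The log2 fold change was -0.46, -0.57, and -0.56 without DMSO replicate 2, DMSO replicate 3, or mocetinostat replicate 3, where it passed the test (edgeR adjusted p = 0.0477, 0.00491, and 0.0138). Exons of *RMND5B* on the opposite strand cover 28% of those of *NHP2*, so that its value is uncertain by an amount that was not measured. The same limit applies to *NOP14*, *NIP7*, *EBNA1BP2*, and *NOP16*, with opposite-strand overlap of 20.7%, 18.4%, 13.7%, and 12.3% of exonic bases.

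**Figure D3:**
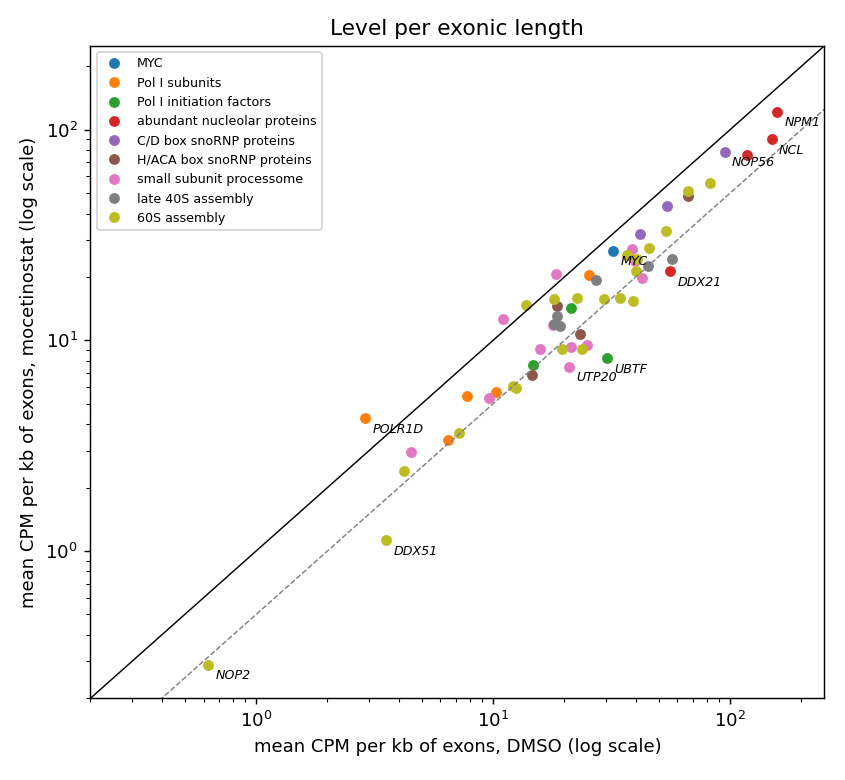
Mean CPM per kb of exonic length with DMSO (x axis) and with mocetinostat (y axis), both on log scales, for the 60 members by role, with TMM scaling. The solid line marks equal levels and the dashed line marks a level lower by a factor of 2. *NPM1* and *NCL* are highest at 158 and 149.8 CPM per kb with DMSO and *NOP2* is lowest at 0.630.

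The small subunit processome, the particle that cuts and folds the 18S part of the precursor, held 4 downregulated genes among its 13 members, and 11 fell and 0 rose with TMM scaling. The shares over all genes tested were 8.18% downregulated, 31.4% lower, and 32.9% higher. Under *GAPDH* scaling, where the median of all genes was 0.53, 4 of the 13 fell and 2 rose. *UTP20*, a large scaffold of the particle (ENSG00000120800, chromosome 12 of GRCh38 from 101280105 to 101386618), held 2318, 1042, and 1362 counts under DMSO, against 415, 111, and 180 under mocetinostat, or 209.7, 217, and 201 CPM and 82.3, 68.8, and 74.6 CPM. All 3 mocetinostat samples were well below the DMSO samples, and the level was 2.74-fold lower (log2 fold change -1.45, standard error 0.10, edgeR adjusted p = 1.56e-21). *NAT10*, the enzyme that acetylates cytidines of 18S rRNA, held 128, 129.9, and 132 CPM under DMSO, against 58.1, 43.4, and 48.1 CPM under mocetinostat and was 2.53-fold lower (log2 fold change -1.34, standard error 0.12, edgeR adjusted p = 7.54e-17). *HEATR1* and *WDR43* belong to the subcomplex of the processome that is also needed for rRNA transcription. *HEATR1* held 215, 190.1, and 174 CPM under DMSO, against 82.5, 75.6, and 95.3 CPM under mocetinostat (log2 fold change -1.19, standard error 0.10, edgeR adjusted p = 7.37e-17), with exons of *LGALS8* on the opposite strand across 23.1% of its exons. *WDR43* held 166, 166, and 189.7 CPM under DMSO, against 83.3, 71.3, and 87.9 CPM under mocetinostat (log2 fold change -1.09, standard error 0.10, edgeR adjusted p = 3.09e-15). The other members of that subcomplex in the list, *UTP4* and *UTP15*, also fell, with log2 fold changes of -0.59 and -0.84. The decreases of *UTP18*, *NOC4L*, *DDX10*, *NOP14*, and *RRP9* lay between -0.74 and -0.47. The remaining pair did not pass the test with TMM scaling, and both rose under *GAPDH* scaling (*RCL1* 0.76, edgeR adjusted p = 4.11e-06, and *UTP3* 0.70, adjusted p = 1.05e-04). *RCL1*, which acts at an early cut of the precursor, held 46.2, 46.6, and 43.5 CPM under DMSO, against 56.1, 49.0, and 51.8 CPM under mocetinostat, each mocetinostat sample being above the DMSO samples (log2 fold change 0.22, standard error 0.13, edgeR adjusted p = 0.138), and it was 0.14 without mocetinostat replicate 1. *UTP3* held 37.2, 30.4, and 44.2 CPM under DMSO, against 42.6, 40.9, and 41.9 CPM under mocetinostat, with overlap (log2 fold change 0.16, standard error 0.15, edgeR adjusted p = 0.341). Its log2 fold change was 0.02 without DMSO replicate 2 and 0.27 without DMSO replicate 3. Of 32 further processome genes taken from textbook composition, 27 fell, 0 rose, and 6 were downregulated (median log2 fold change -0.67), whereas under *GAPDH* scaling 10 fell, 3 rose, and 0 were downregulated (median -0.14). *EMG1*, a methyltransferase of 18S rRNA, went from 108 ± 2.35 to 41.7 ± 7.04 CPM (SD, n = 3) (log2 fold change -1.42, standard error 0.13, edgeR adjusted p = 1.77e-16), and *NGDN* from 53.0 ± 4.05 to 23.6 ± 7.06 CPM (SD, n = 3) (log2 fold change -1.23, standard error 0.16, edgeR adjusted p = 2.53e-10).

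All 6 factors of late 40S assembly fell with TMM scaling, and 1 of them, *NOB1*, was downregulated, against 31.4% and 8.18% of all genes tested. Under *GAPDH* scaling, where the median of all genes was 0.53, 2 of the 6 fell and 0 rose. *NOB1*, the endonuclease that makes the final cut at the 3′ end of 18S rRNA (ENSG00000141101, chromosome 16 of GRCh38 from 69741871 to 69754926), held 114, 115, and 129 CPM under DMSO, against 50.6, 50.8, and 52.2 CPM under mocetinostat (replicates 1 to 3 in order). The 3 mocetinostat samples lay close together and below every DMSO sample, and the level was 2.33-fold lower (log2 fold change -1.22, standard error 0.12, edgeR adjusted p = 4.66e-15). A noncoding gene on the opposite strand overlaps 20.4% of its exonic bases. *PNO1*, the binding partner that holds NOB1 inactive, fell from 48.9 ± 1.03 to 34.3 ± 4.52 CPM (SD, n = 3) (log2 fold change -0.55, standard error 0.14, edgeR adjusted p = 5.97e-04). *TSR1*, a GTPase-like factor of the same particle, held 227, 209.9, and 215 CPM under DMSO, against 113, 112, and 102 CPM under mocetinostat and lay just short of the threshold (log2 fold change -0.997, standard error 0.09, edgeR adjusted p = 2.71e-15), and it was called downregulated in 7 of the alternatives. *SRR*, on the opposite strand, overlaps 23.9% of its exonic bases. *BYSL* had the smallest decrease of the group and held 45.8, 53.1, and 59.7 CPM under DMSO, against 32.7, 41.5, and 37.7 CPM under mocetinostat (log2 fold change -0.53, standard error 0.14, edgeR adjusted p = 8.18e-04), and its log2 fold change was 0.00 under *GAPDH* scaling. *LTV1* and *RRP12* had log2 fold changes of -0.77 and -0.59.

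The 60S assembly factors, the largest group with 21 members, included 18 that fell, 0 that rose, and 6 that were downregulated with TMM scaling. These shares were 31.4%, 32.9%, and 8.18% over all genes tested. Under *GAPDH* scaling, where the median of all genes was 0.53, 10 of the 21 fell and 2 rose. *DDX51*, a helicase that acts in forming the 3′ end of 28S rRNA (ENSG00000185163, chromosome 12 of GRCh38 from 132136594 to 132144319), had the lowest value of the group. It held 210, 118, and 162 counts under DMSO, against 32, 15, and 14 under mocetinostat, or 19.0, 24.6, and 23.9 CPM and 6.34, 9.30, and 5.80 CPM. The mocetinostat values were all lower but rest on few reads, with a 3.26-fold decrease (log2 fold change -1.71, standard error 0.24, edgeR adjusted p = 4.58e-09). The start of *DDX51* lies head to head with that of *NOC4L*, a processome factor that also fell (log2 fold change -0.73, standard error 0.18, edgeR adjusted p = 4.00e-04). The 137 bases between their starts are shown on the strand of *NOC4L*, because both genes fell and share this stretch, and capitals mark the letters TGACGT, which occur 3 times on this strand.
DDX51 to NOC4L (chr12:132144320-132144456, plus strand): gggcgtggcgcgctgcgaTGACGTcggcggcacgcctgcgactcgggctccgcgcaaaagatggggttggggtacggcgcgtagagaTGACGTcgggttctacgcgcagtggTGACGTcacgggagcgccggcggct
TGACGT on either strand was found in the windows of 12 of the 51 members (23.5%) and of 14.1% of tested genes, and it was searched for after this sequence had been seen.

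*MRTO4*, which holds the place of a stalk protein on the immature 60S particle (ENSG00000053372, chromosome 1 of GRCh38 from 19251805 to 19260128), held 99.2, 89.8, and 109 CPM under DMSO, against 36.9, 45.2, and 36.5 CPM under mocetinostat (replicates 1 to 3 in order). All mocetinostat samples were below all DMSO samples, with a 2.56-fold decrease (log2 fold change -1.36, standard error 0.13, edgeR adjusted p = 2.83e-15). The other downregulated members of the group were *NOP16*, *DDX18*, *PES1*, and *NIP7*, with log2 fold changes of -1.42, -1.10, -1.07, and -1.04. All 4 lost the call under *GAPDH* scaling, *DDX18*, *PES1*, and *NIP7* also with edgeR's test against a log2 fold change of 1, and *PES1* and *NIP7* with a minimum of 10 counts. *NIP7* lost it as well with thinned libraries and without mocetinostat replicate 2 (-0.99). *PES1*, *WDR12*, and *BOP1* encode 1 stable complex needed for 28S and 5.8S processing, and all 3 fell with TMM scaling. *PES1* held 136, 159, and 173 CPM under DMSO, against 88.4, 61.4, and 65.9 CPM under mocetinostat, *WDR12* had a log2 fold change of -0.91, and *BOP1* had one of -0.52, which was 0.02 under *GAPDH* scaling. *GNL2* and *GNL3* encode related nucleolar GTPases. *GNL2* held 75.7, 79.1, and 82.8 CPM under DMSO, against 97.1, 81.8, and 74.6 CPM under mocetinostat, with overlap between the conditions (log2 fold change 0.12, standard error 0.11, edgeR adjusted p = 0.386). It was 0.07, -0.03, and 0.19 without DMSO replicate 1, mocetinostat replicate 1, or mocetinostat replicate 3, and it rose under *GAPDH* scaling (0.65). *GNL3*, nucleostemin, held 207, 228, and 209 CPM under DMSO, against 173, 151, and 171 CPM under mocetinostat (log2 fold change -0.37, standard error 0.09, edgeR adjusted p = 2.31e-04) and had a value of 0.16 under *GAPDH* scaling. *NOC3L* held 84.9, 85.0, and 71.3 CPM under DMSO, against 72.2, 54.5, and 84.1 CPM under mocetinostat and did not pass the test (log2 fold change -0.17, standard error 0.12, edgeR adjusted p = 0.216). Without DMSO replicate 3 or mocetinostat replicate 2 its log2 fold change was -0.28 or -0.08, without mocetinostat replicate 3 it fell (-0.31, edgeR adjusted p = 0.0443), and under *GAPDH* scaling it rose (0.36). *NOP2*, a methyltransferase of 28S rRNA, held only 37, 13, and 19 counts under DMSO, against 9, 1, and 4 under mocetinostat (log2 fold change -0.98, standard error 0.54, edgeR adjusted p = 0.107). It did not pass the test. A second gene model on the same strand covers 54.4% of the exons of *NOP2* and held 0 counts in every sample, and the readthrough gene *PPAN-P2RY11*, also at 0 in every sample, covers 47.6% of those of *PPAN*. How reads in shared exons were assigned is not given in the sources used here, so the levels of *NOP2* and *PPAN* are uncertain. The same holds for *LTV1* and *RRS1*, where same-strand models at 0 in every sample cover 27.6% and 11.3% of the exons. *PPAN* held 123, 66, and 78 counts under DMSO, against 24, 17, and 13 under mocetinostat (log2 fold change -0.95, standard error 0.29, edgeR adjusted p = 0.00336). Without mocetinostat replicate 1 its adjusted p was 0.0868 in edgeR. The remaining members of the group, *BRIX1*, *DDX56*, *GRWD1*, *RRP1*, *RRS1*, *EBNA1BP2*, *RRP1B*, and *NOC2L*, all fell, with log2 fold changes from -0.95 to -0.53. Of 32 further 60S assembly genes, 29 fell, 0 rose, and 4 were downregulated (median log2 fold change -0.59), whereas under *GAPDH* scaling 8 fell, 2 rose, and 1, *WDR74*, was downregulated (median -0.05). *WDR74*, a factor that works with the nuclear ATPase NVL on the particle, went from 55.5 ± 3.39 to 17.4 ± 2.68 CPM (SD, n = 3) (log2 fold change -1.72, standard error 0.16, edgeR adjusted p = 2.24e-15).

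**Figure D4:**
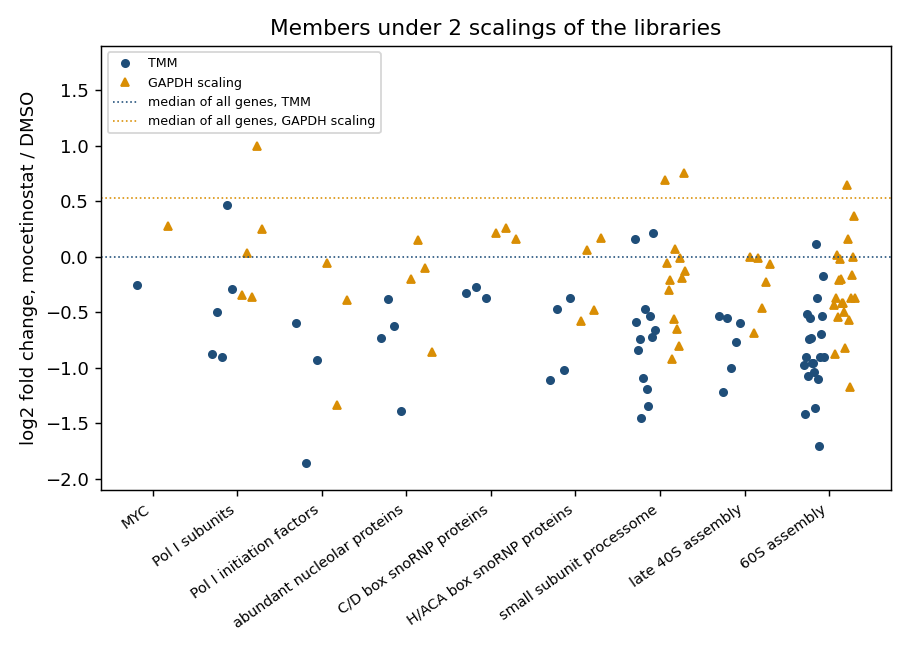
Log2 fold change (y axis) of each member by role, with TMM scaling (circles) and with each library scaled to its *GAPDH* count (triangles). Dotted lines are the medians of all genes tested, -0.00 and 0.53. The members sit below the line of their own scaling in 56 of 60 cases with TMM, while 14 members change sign between the scalings, among them all 3 C/D box proteins and *MYC*.

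Genes around the pathway were compared with the members by their counts. Among RNA polymerase II subunits 3 of 7 fell and 0 rose, and among RNA polymerase III subunits 4 of 11 fell and 2 rose, all with TMM scaling. There 31.4% of all genes tested fell, 32.9% rose, and 8.18% were downregulated. These small lists are not called different from that background. Under *GAPDH* scaling these counts were 1 and 1 for Pol II and 2 and 5 for Pol III, and both medians turned from below to above 0 (-0.33 to 0.21 and -0.27 to 0.27). The difference between these lists and the members was not tested. *POLR2A*, the largest Pol II subunit, was downregulated and went from 456 ± 42.6 to 225 ± 8.80 CPM (SD, n = 3) (log2 fold change -1.01, standard error 0.08, edgeR adjusted p = 2.78e-18), whereas the other 6 had log2 fold changes from -0.78 to -0.21. Among the Pol III subunits, *POLR3F* went from 53.9 ± 0.655 to 19.4 ± 6.08 CPM (SD, n = 3) (log2 fold change -1.46, standard error 0.16, edgeR adjusted p = 1.30e-12) and *POLR3E* from 88.2 ± 10.7 to 37.7 ± 4.20 CPM (SD, n = 3) (log2 fold change -1.19, standard error 0.13, edgeR adjusted p = 1.24e-12), while *POLR3G* and *POLR3K* rose, with log2 fold changes of 0.64 and 0.35. Under *GAPDH* scaling *POLR2A* (-0.49), *POLR3F* (-0.92), and *POLR3E* (-0.66) lost the call. Of 5 subunits shared by all 3 polymerases, 1 fell and 0 rose, whereas 0 fell and 3 rose under *GAPDH* scaling. The nuclear exosome, which trims rRNA precursors, had 10 of 14 genes lower, 0 higher, and 4 downregulated (median log2 fold change -0.79), whereas under *GAPDH* scaling 5 fell, 1 rose, and 1, *EXOSC8*, was downregulated (median -0.25). *EXOSC8* and *EXOSC10* had the lowest values, -1.55 and -1.43. Of 5 factors linked to silencing of rRNA genes, 2 fell (*KDM2A* and *RRP8*) and 0 rose, whereas under *GAPDH* scaling 1 fell and 4 rose.

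**Figure D5:**
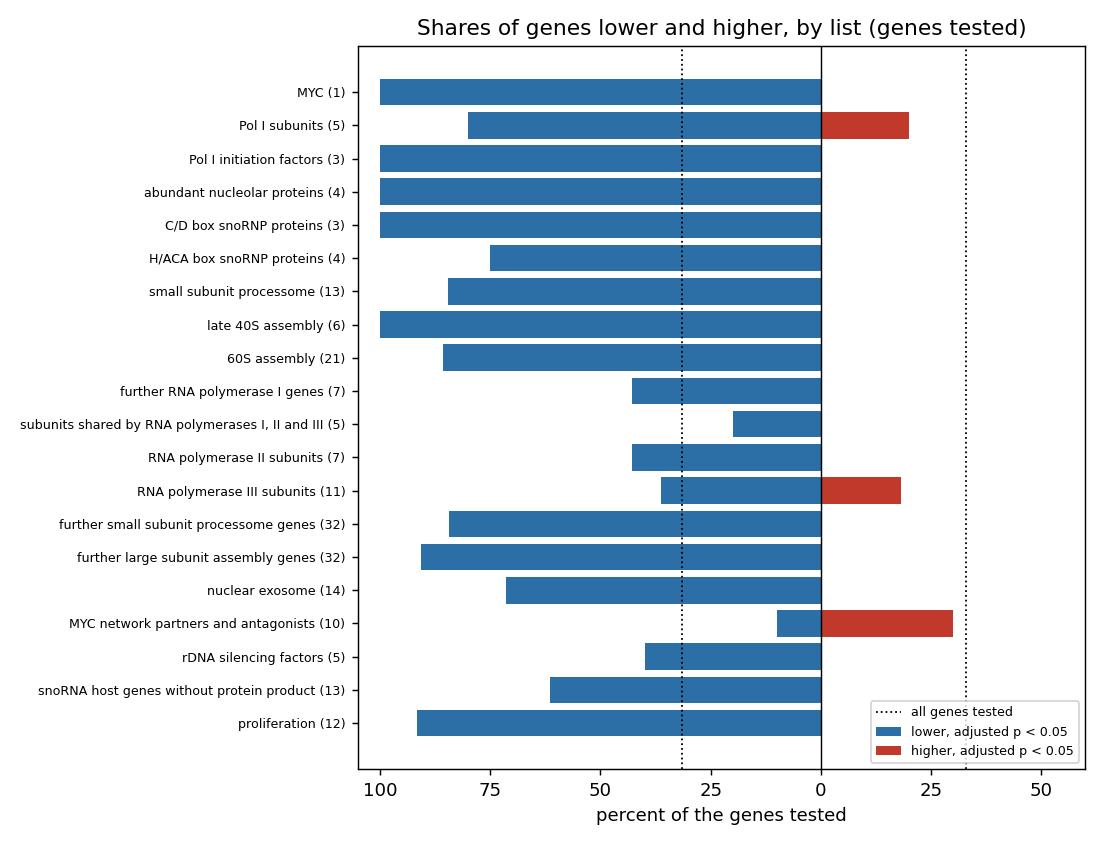
Percent of the genes tested in each list that were lower (left) or higher (right) with mocetinostat at an edgeR adjusted p under 0.05 with TMM scaling, with the number of genes tested in parentheses. Dotted lines mark the shares over all 13966 genes, 31.4% and 32.9%. All 6 late 40S factors, 29 of 32 further 60S genes, and 27 of 32 further processome genes were lower, against 3 of 7 Pol II subunits, and under *GAPDH* scaling the lower shares shrink and the medians of the 4 lists of further polymerase subunits lie above 0.

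Most markers of cell division were lower as well, by unlike amounts. Of 12 such genes 11 fell and 3 were downregulated, against 31.4% and 8.18% of all genes tested. Their median log2 fold change was -0.66, with *AURKA* at -2.13, *CCNB1* at -1.79, *PCNA* at -0.17, and *MCM6* at -0.04, which did not pass the test. Under *GAPDH* scaling 5 fell and 2, *PCNA* (0.36) and *MCM6* (0.50), rose (median -0.13). *AURKA* (-1.60) and *CCNB1* (-1.25) stayed downregulated under *GAPDH* scaling. *MKI67* went from 1341 ± 80.4 to 681 ± 5.80 CPM (SD, n = 3), *AURKA*, a mitotic kinase, from 331 ± 19.9 to 76.7 ± 11.0 CPM (SD, n = 3), and *PCNA*, a replication clamp, from 444 ± 21.8 to 394 ± 22.9 CPM (SD, n = 3). The part of cell division in the results above was not tested.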

How the data were processed

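RNA-Seq of 6 samples of TC28a2 cells was analyzed. The deposited values are raw counts per gene, which the authors made with STAR 2.6.1d and featureCounts 1.6.4 on GRCh38 (versions per the submitters' processing notes), after removing ribosomal RNA reads. The strand setting and the treatment of multimapping reads are not given in the sources used here, so reads of overlapping genes may be shared. Genes were filtered with filterByExpr and tested with edgeR 4.0.16 (TMM, quasi-likelihood, treatment as the only term), and p-values were adjusted by Benjamini-Hochberg over 13966 genes. The procedure was tested on simulated data. Alternatives were DESeq2 1.42.0, other scalings, filters, and thresholds, thinning, a replicate block, and leaving out each sample. Total counts of 1619344 to 11031132 limit precision, most of all for mocetinostat replicate 2. Levels per kb used the summed exon length of the GENCODE annotation. Promoter sequences came from RefSeq. The members and lists were chosen with earlier results of these data known. Named in full were *MYC*, Pol I genes, 4 nucleolar genes, the lowest and highest member of each role, and the 5 next smallest p. In other lists, up to 2 downregulated or upregulated genes were named. *PES1*, *WDR12*, *BOP1*, *GNL3*, *PPAN*, *PNO1*, *MAX*, *TTF1*, *TAF1A*, *TAF1B*, *POLR3G*, *POLR3K*, *MXD1*, *MXD3*, *MXD4*, *MNT*, *MKI67*, *MCM6*, *CCNB1*, and *PCNA* were named after their values were seen.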

Additional observations from a re-analysis of the deposited data

How the results depend on the processing

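Of the 15 members called downregulated, 2 remained so under *GAPDH* scaling and 8 under edgeR's test against a log2 fold change of 1 (glmTreat), while 26 members were called with no low-count filter, which lowered the median of all genes by 0.25 on the log2 scale. The count ranged from 15 to 19 when each sample was left out in turn. Under *GAPDH* scaling 1 member, *POLR1D* (1.00), was called higher, 23 fell, and 7 rose. The number of members that rose was 0 in DESeq2 and with no filter, 2 with at least 10 counts in every sample, and 0 to 1 when each sample was left out, while the number that fell was then 50 to 54. Under *GAPDH* scaling 14 log2 fold changes turned positive: *MYC* 0.27, *POLR1B* 0.039, *POLR1E* 0.25, *NPM1* 0.15, *FBL* 0.21, *NOP56* 0.26, *NOP58* 0.16, *NHP2* 0.066, *NOP10* 0.17, *RRP9* 0.066, *BYSL* 0.0027, *BOP1* 0.017, *GNL3* 0.16, and *NOC3L* 0.36. *GAPDH* scaling raised all values alike, and the cause of its own change was not tested. The number of all genes called lower was 1142, and that of all genes called higher was 2827. They were 284 and 4425 with *GAPDH* scaling, 704 and 1620 with 10 counts in every sample, 2120 lower with no filter, and 465 lower with glmTreat. Of all calls 71.2% were higher, against 94.0% with *GAPDH* scaling, 60.2% with no filter, and 81.6% with glmTreat. Same-numbered samples correlated at 0.038, 0.025, and -0.043 over 10262 genes, and not every sample correlated best with its own number. Differently numbered samples correlated at -0.081 to 0.062. Since all of these values lie near 0, they cannot show whether same-numbered samples shared an experiment, which was not tested. With the replicate number as a block, 16 members were called lower, 53 fell, and 1 rose. After thinning every library to 1619344 counts, the adjusted p in edgeR was 0.0848 for *BYSL*, 0.0628 for *NOP56*, and 0.0806 for *RRP9*. *NOP2* had 1 to 9 counts in the mocetinostat samples, and the cause was not tested.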

Other observations

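Noncoding genes that host small nucleolar RNAs (snoRNAs), the guides of rRNA modification, were examined beside the members. Of 13 such hosts 8 fell, 0 rose, and 5 did not pass the test, where 31.4% of all genes tested fell. Of the 8, 2 were downregulated (8.18% of all genes tested), and the median log2 fold change of the 13 was -0.69 against -0.73 for the 60 members and -0.00 for all genes tested. Under *GAPDH* scaling 4 fell, 3 rose, and 0 were downregulated, with a median of -0.15. *SNHG3* had a log2 fold change of -1.11 and *SNHG8* one of -1.03. Within 10 members lie 36 annotated snoRNA genes. The 10 had a median log2 fold change of -0.92 and the other 50 one of -0.71, with no test. The snoRNAs themselves could not be compared, since the highest count of any of the 36 was 66 and 19 were at 0 in every sample.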
